A study of Homo sapiens with 8 samples.

Results

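The mRNAs of 10 sphingolipid enzymes were followed across LM2 cells treated with a kinase inhibitor or carrying shRNAs against the ABL kinases. The members were named by symbol (UGCG, SGMS1, SGMS2, CERS2, CERS5, CERS6, DEGS1, SPTLC1, SPTLC2 and B4GALT5), and all 10 were found among the 58688 genes counted, with at least 10 counts in each of the 8 libraries. The set was chosen by name around UGCG, which was selected on its measured fold in the ABL1 and ABL2 double knockdown over shCtrl, among the clearest falls there, so the knockdown values are a description and were not tested.

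LM2 is a lung metastatic line derived from the human triple negative breast cancer line MDA-MB-231, grown in DMEM with 10% FBS. RNA was sequenced from 2 libraries of cells given the solvent DMSO, 2 of cells given 1 µmol/L Ponatinib for 6 h, and 1 each of stable lentiviral lines with a scrambled shRNA (shCtrl), ABL1 shRNA, ABL2 shRNA, or both shRNAs. Ponatinib is a drug that blocks ABL and several other tyrosine kinases, and an shRNA is a short hairpin RNA that directs degradation of a chosen mRNA. By the study's methods the shRNA lines were selected with puromycin and used 1 hairpin per ABL gene, neither of which the DMSO and Ponatinib cells carried. The comparisons address how far the gene changes of Ponatinib match those of lowering ABL1 and ABL2 mRNA.

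Sphingolipids are built on ceramide, which is made in the endoplasmic reticulum from serine and a fatty acyl-CoA by serine palmitoyltransferase, a ketosphinganine reductase, the ceramide synthases and a desaturase. In the Golgi apparatus ceramide can receive glucose from glucosylceramide synthase (UGCG), the entry to most glycosphingolipids. It can instead receive phosphocholine from a sphingomyelin synthase, SGMS1 in the Golgi apparatus or SGMS2 mainly at the plasma membrane. UGCG is well known in breast cancer cell lines from work on drug resistance, since adding glucose removes ceramide.

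Counts on genes ranged from 7568934 to 13010896 per library, so that 3 counts correspond to at most 0.396 CPM (counts scaled by the library's total on genes). Most, but not all, marker levels fitted a triple negative, mesenchymal line. VIM, a mesenchymal filament gene, lay between 1896 and 3179 CPM, PGR had 0 counts in every library, ESR1 had at most 11, CDH1 lay at or under 1.77 CPM, and the blood cell genes PTPRC, CD3E and HBB had at most 3. The luminal or epithelial genes ERBB2 (52.7 to 68.0 CPM), EPCAM (5.08 to 12.0 CPM) and KRT8 (239.5 to 804 CPM) were present. Of the fibroblast genes, DCN had at most 4 counts and COL1A2 at most 1.55 CPM, while COL1A1 ranged from 61.3 to 398 CPM. The headers within the count tables of shCtrl and ABL1 shRNA were exchanged relative to the labels. The targeted mRNA followed the sample labels. ABL1 was at 186 CPM in shCtrl and 205 CPM in the ABL2 shRNA line. It was at 72.6 CPM in the ABL1 shRNA line and 111 CPM in the line with both. ABL2 was at 231, 94.5, 212 and 149 CPM in the same order. Each target was reduced only in part, and less in the line with both than in its single knockdown.

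The shCtrl library stood apart from the other 3 shRNA libraries. It was over 2-fold above each of them for 157 of 16172 genes (0.971%), against 0.155 to 0.47% for the other shRNA libraries, and over 2-fold below each of them for 222 genes (1.37%), against 0.377 to 0.742%. By design shCtrl was also the only shRNA library without an ABL hairpin, while each single knockdown shared its hairpin with the double. Differences shared by the ABL hairpins and a trait of the shCtrl library itself cannot be told apart here. UGCG was one of the genes that were highest in shCtrl, so knockdown values over shCtrl are followed by values that do not use it. In whole cell RNA, fewer cells that express a gene and less RNA per cell cannot be told apart.

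UGCG and B4GALT5, which act in succession on ceramide, were the 2 members whose levels differed most among the libraries, and their promoters are shown for that reason. UGCG lies at chr9:111896814-111935369 on the plus strand and B4GALT5 at chr20:49632945-49713878 on the minus strand (GRCh38), and the exons of neither overlap another annotated gene. The 250 bases before the start of each gene are printed 5′ to 3′ along the gene's own strand, from RefSeq on GRCh38.p14 (chr9:111896564-111896813 and chr20:49713879-49714128), with GC boxes (GGGCGG on either strand, a motif bound by SP1 family factors) in capitals.
UGCG: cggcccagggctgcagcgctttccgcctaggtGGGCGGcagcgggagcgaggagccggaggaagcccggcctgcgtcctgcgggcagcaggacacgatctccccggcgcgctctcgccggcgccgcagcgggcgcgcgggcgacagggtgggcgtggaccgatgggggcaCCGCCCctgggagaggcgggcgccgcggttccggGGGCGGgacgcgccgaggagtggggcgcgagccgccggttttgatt
B4GALT5: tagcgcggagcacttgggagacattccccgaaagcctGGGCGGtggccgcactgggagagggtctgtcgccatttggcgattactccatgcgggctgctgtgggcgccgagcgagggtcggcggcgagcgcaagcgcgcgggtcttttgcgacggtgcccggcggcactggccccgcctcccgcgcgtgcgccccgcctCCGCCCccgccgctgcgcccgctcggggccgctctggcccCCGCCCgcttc
Each stretch held 3 GC boxes, and the nearest ended 40 bases before the start of UGCG and 5 bases before that of B4GALT5. Their GC contents were 78.4% and 75.6%. Over windows of 300 bases (250 before to 50 after a start), 9 of the 12 windows found for 9 of the members held GGGCGG, as did 45.0% of 35116 promoters in the same table. The AP-1 motif TGANTCA was in 2 of the 12 member windows, both belonging to SGMS2, and in 7.71% of all promoters. The E box CACGTG was in 0 of the 12 and in 7.26% of all. Neither of these motifs occurred in the windows of UGCG or B4GALT5. Motifs were searched on both strands, and a match describes the letters only.

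Compared per length, the members spanned a wide range in DMSO. DEGS1 had the highest level at 197 ± 2.70 TPM (counts per kilobase of merged exons, scaled to the same sum in every library; SD, n = 2), followed by UGCG at 122 ± 7.57, CERS2 at 109 ± 3.60 and B4GALT5 at 77.5 ± 0.335. SGMS2 (32.0 ± 0.709), SPTLC1 (27.7 ± 1.31) and SGMS1 (25.7 ± 1.45) formed a middle tier. SPTLC2 (18.8 ± 0.0854), CERS6 (15.7 ± 0.360) and CERS5 (13.5 ± 0.423) were lowest. No neighbours in this order had overlapping TPM in the DMSO libraries, although with 2 libraries this is a weak statement. The order depended on the length used. With the length of the longest transcript, UGCG came after CERS2 (108 against 153 TPM). By that length SGMS2 (30.1 TPM) came below SPTLC1 (45.9) and SGMS1 (34.2), and CERS5 (23.5) came above SPTLC2 (22.2) and CERS6 (12.1). In shCtrl UGCG ranked first of the members with 411 TPM, and in the 3 knockdown libraries B4GALT5 ranked first with 390 to 434 TPM.

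**Figure D1:**
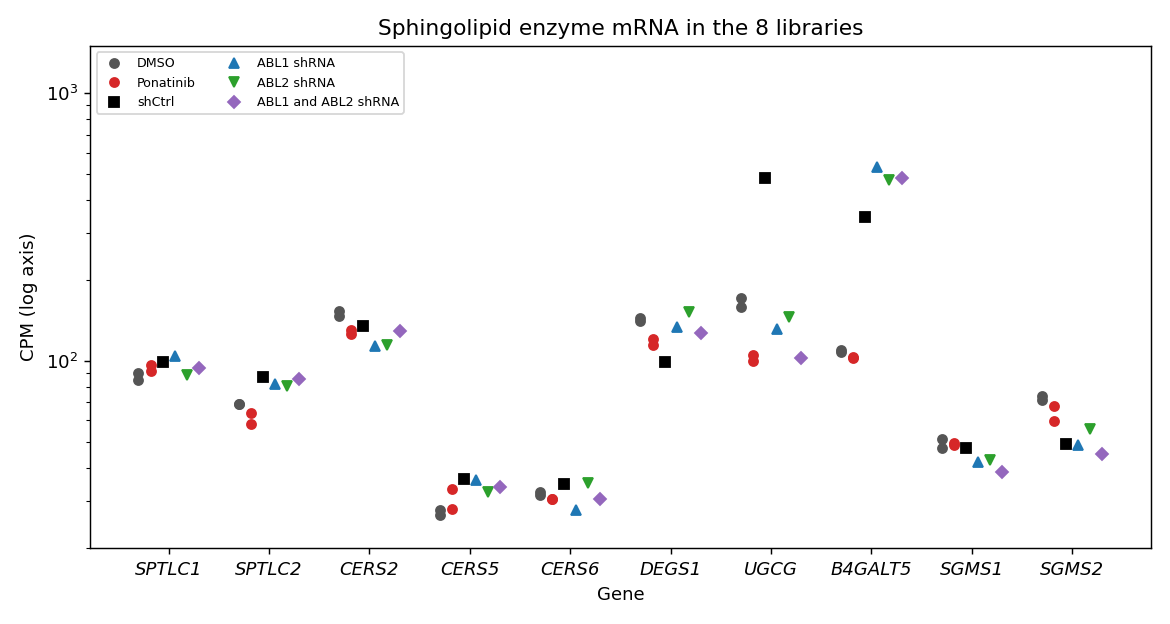
CPM (log axis) of the 10 sphingolipid enzyme mRNAs in each of the 8 libraries, ordered along the pathway, with 1 point per library. UGCG stands at 481 CPM in shCtrl against 100.04 to 172 in the other 7 libraries, and B4GALT5 stands at 345 to 530.1 CPM in the 4 shRNA libraries against 103 to 110 in the others.

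With Ponatinib, UGCG had the lowest log2 fold change of the members. After 6 h, 5 of the 10 enzymes fell and none rose: UGCG, the desaturase DEGS1, the ceramide synthase CERS2, the sphingomyelin synthase SGMS2 and the serine palmitoyltransferase subunit SPTLC2. Across all genes tested, 4917 of 16031 (30.7%) passed the same test, 15.7% lower and 15.0% higher, and 0 members passed the study's own thresholds of a fold over 2 with an unadjusted P under 0.05, which 5.48% of genes did. The median log2 fold change was -0.17 over the members and -0.0047 over all genes tested. The test was the quasi-likelihood test of edgeR, adjusted over all genes by the Benjamini-Hochberg method, and nothing in the labels says that the repeats were separate cultures, so its p-values measure the spread between these libraries only.

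UGCG, which adds glucose to ceramide, had 172 and 159 CPM in DMSO and 100.04 and 105 CPM after Ponatinib. The groups did not overlap, and the gap between them was wider than the spread within either. The means were 165 ± 9.61 and 103 ± 3.53 CPM (SD, n = 2 each), and the change was -0.74 on the log2 scale with a standard error of 0.068 (edgeR adjusted p = 1.05e-06). By p-value UGCG ranked 340 of the 16031 genes, and 747 when genes were ordered from the lowest log2 fold change. B4GALT5, which adds galactose to the product of UGCG, had 108 and 110 CPM in DMSO and 103 and 103 CPM after Ponatinib, and its log2 fold change of -0.13 (standard error 0.064) did not pass (edgeR adjusted p = 0.156).

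Of the sphingomyelin synthases, which use the same ceramide as UGCG, SGMS2 (chr4:107824563-107915047) works mainly at the plasma membrane and SGMS1 (chr10:50305586-50625163) in the Golgi apparatus. SGMS2 had 71.3 and 74.0 CPM in DMSO and 59.5 and 67.8 CPM after Ponatinib, without overlap. Its log2 fold change was -0.24 (standard error 0.078, edgeR adjusted p = 0.028). SGMS1 had 51.0 and 47.4 CPM in DMSO and 48.5 and 49.3 CPM after Ponatinib, and the groups overlapped (log2 fold change -0.06, edgeR adjusted p = 0.649). The call for SGMS2 was lost without DMSO 1, DMSO 2 or Ponatinib 1 (adjusted p = 0.118, 0.220 and 0.213), by library totals without TMM scaling (0.071) and in the DESeq2 Wald test (0.167). Within a library, the ratio of UGCG to SGMS1 and SGMS2 together, in counts per kilobase, does not depend on scaling between libraries. It was 2.18 and 2.04 in DMSO and 1.43 and 1.39 after Ponatinib.

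DEGS1 (chr1:224175756-224193441), which converts dihydroceramide to ceramide, had 141 and 145 CPM in DMSO and 121 and 114 CPM after Ponatinib. All of the treated values were below the DMSO values, and the log2 fold change was -0.33 (standard error 0.065, edgeR adjusted p = 0.0014). DEGS1 and UGCG were the 2 members whose calls held in all 11 alternatives tried, leaving out each library included.

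Among the ceramide synthases, CERS2 (chr1:150960583-150975003), which prefers very long acyl chains, had 153 and 147 CPM in DMSO and 131 and 126 CPM after Ponatinib. Its log2 fold change was -0.27 (standard error 0.064, edgeR adjusted p = 0.0046), and the call was lost without DMSO 1 (adjusted p = 0.123). CERS5 (chr12:50129289-50167533) and CERS6 (chr2:168456249-168775134), which prefer palmitoyl-CoA, did not pass. CERS5 had 26.5 and 27.9 CPM in DMSO and 33.2 and 28.0 CPM after Ponatinib (log2 fold change 0.14, standard error 0.107, edgeR adjusted p = 0.357). CERS6 had 32.5 and 31.6 CPM in DMSO and 30.5 and 30.5 CPM after Ponatinib (log2 fold change -0.12, standard error 0.093, edgeR adjusted p = 0.371). The gap for CERS6 lay within counting error, since its 95% Wilson interval ran from 29.4 to 36.0 CPM in DMSO 1.

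The subunits of serine palmitoyltransferase, the first enzyme of the pathway, had opposite signs. SPTLC2 (chr14:77505997-77616637) had 68.9 CPM in either DMSO library and 58.3 and 64.2 CPM after Ponatinib (log2 fold change -0.22, standard error 0.075, edgeR adjusted p = 0.038). SPTLC1 (chr9:92000087-92115413) had 89.9 and 84.6 CPM in DMSO and 96.4 and 91.4 CPM after Ponatinib (log2 fold change 0.06, standard error 0.069, edgeR adjusted p = 0.533). Whether the subunits differed from each other was not tested. The SPTLC2 call was lost without DMSO 1, DMSO 2 or Ponatinib 1 (adjusted p = 0.224, 0.209 and 0.218), by library totals (0.097) and in the DESeq2 Wald test (0.227).

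In CPM, 9 of the 10 members had DMSO and Ponatinib libraries that did not overlap, 7 lower and 2 higher, with SGMS1 the exception. Over all tested genes 64.8% did not overlap. Exons of CERS6 overlap those of the antisense gene CERS6-AS1 over 43.8% of their length, those of CERS2 overlap SETDB1 over 20.4%, those of SGMS2 overlap CYP2U1-AS1 over 15.7% and those of SGMS1 overlap SGMS1-AS1 over 3.71%, in each case on the opposite strand. Whether counting used strand is not given in the sources used here, so reads of these 4 members and of their partners may not have been told apart.

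**Figure D2:**
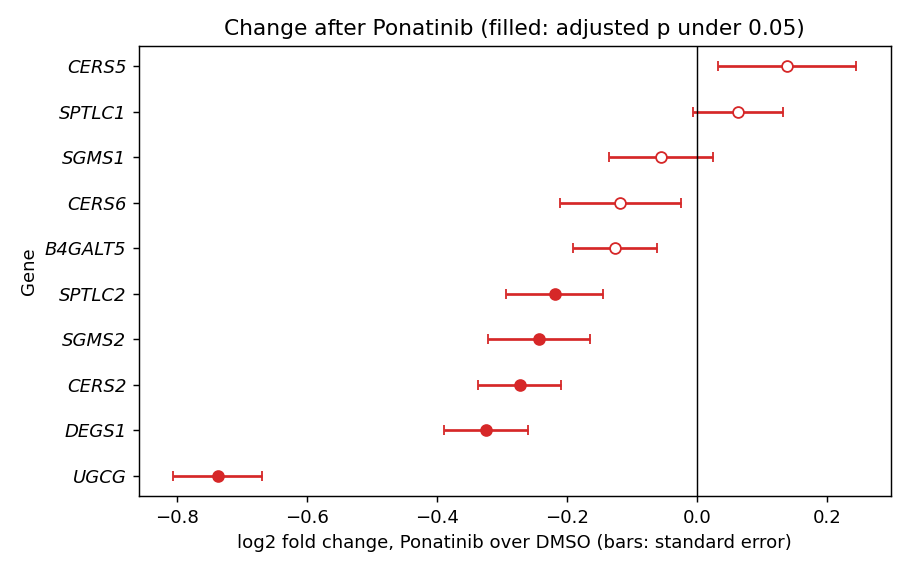
Log2 fold change of each enzyme mRNA, Ponatinib over DMSO (2 libraries each); bars are edgeR standard errors and filled points passed an adjusted p of 0.05. UGCG lies at -0.74, and the other 4 enzymes that passed lie between -0.33 and -0.22.

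The knockdown lines have 1 library each, and all 3 comparisons share the shCtrl library. The folds below are TMM-scaled ratios of these libraries with exact 95% intervals that cover counting error only. UGCG was the only member past 2-fold in each comparison, always lower. Over all 16172 genes, 8.76%, 7.68% and 7.75% were past 2-fold in the ABL1, ABL2 and double knockdown, and 4.11%, 3.14% and 3.33% were past it on the lower side. In an edgeR fit of all 8 libraries, which takes its error from the DMSO and Ponatinib repeats, 4 members passed an adjusted p of 0.05 in each knockdown (2 lower, 2 higher), where 22.0%, 15.6% and 17.8% of all genes passed, and nothing is read from these counts because UGCG was chosen on the contrast.

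UGCG had 481 CPM in shCtrl, against 131 CPM in the ABL1 knockdown, 145 CPM in the ABL2 knockdown and 102 CPM in the double knockdown. The fold over shCtrl was 0.269 (0.254 to 0.284) for ABL1, 0.293 (0.278 to 0.309) for ABL2 and 0.206 (0.194 to 0.219) for the double knockdown, or -1.90, -1.77 and -2.28 on the log2 scale. Ordered from the lowest fold, UGCG ranked 94, 116 and 53 of the 16172 genes. The level in the double knockdown, on which UGCG was chosen, was the lowest of the 4 shRNA libraries.

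These distances rest on shCtrl. Its UGCG level was 2.91 times the DMSO mean and 2.79 times the highest of the other 7 libraries, and 84 of 18275 genes (0.46%) were likewise over 2-fold above every other library in shCtrl. Without shCtrl, the double knockdown stood at 0.768 of ABL1 shRNA (0.713 to 0.827) and at 0.703 of ABL2 shRNA (0.654 to 0.757). UGCG was chosen on its fall in the double knockdown, so these ratios are no independent check. No member was past 2-fold in them, where 3.45% and 4.98% of all genes were. Against the mean of the DMSO libraries, UGCG was at log2 -0.38, -0.25 and -0.76 in the ABL1, ABL2 and double knockdown. In that comparison 31.9%, 32.4% and 30.5% of 18275 genes were past 2-fold, and B4GALT5 was the 1 member past it in each knockdown. The DMSO cells had no shRNA virus or puromycin selection, and these differences cannot be told apart from those of the shRNAs. Among the shRNA libraries, the ratio of UGCG to SGMS1 and SGMS2 per kilobase was highest in shCtrl and lowest in the double knockdown. This ratio uses the same UGCG counts. It was 7.63 in shCtrl and 2.23, 2.28 and 1.88 in the ABL1, ABL2 and double knockdown.

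B4GALT5, the lactosylceramide synthase, had 345 CPM in shCtrl and 530.1, 476 and 484 CPM in the ABL1, ABL2 and double knockdown. All 3 knockdown libraries were above shCtrl, by folds of 1.51 (1.45 to 1.57), 1.34 (1.29 to 1.39) and 1.36 (1.30 to 1.41). Past 1.5-fold with ABL1 shRNA were UGCG (lower) and B4GALT5 (higher), where 23.7% of all genes were past it. The larger gap for B4GALT5 lay between the sets: the lowest shRNA library was 3.15 times the highest of the DMSO and Ponatinib libraries, and 523 of 18275 genes (2.86%) were over 2-fold higher in every shRNA library than in every other, while 12.1% were over 2-fold lower. Of all counts on the 10 members, B4GALT5 took 11.8% and 12.2% in DMSO, 24.4% in shCtrl and 38.9 to 42.4% in the knockdown libraries, and UGCG took 18.8% and 17.7% in DMSO, 34.0% in shCtrl and 8.75 to 11.9% in the knockdown libraries.

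**Figure D3:**
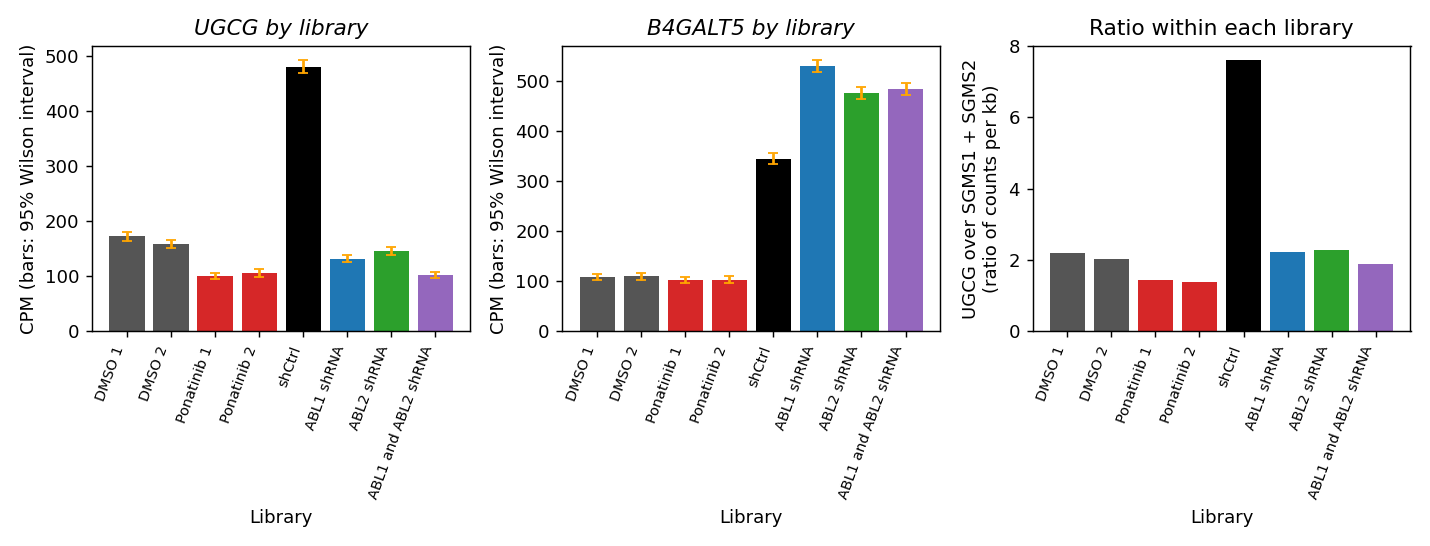
Left and middle, CPM of UGCG and B4GALT5 in each library with 95% Wilson intervals of counting error; right, UGCG over the sum of SGMS1 and SGMS2 in counts per kilobase. UGCG and the ratio (7.63) are highest in shCtrl, while B4GALT5 is high in all 4 shRNA libraries.

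DEGS1 had 99.4 CPM in shCtrl and 134, 152 and 127 CPM in the ABL1, ABL2 and double knockdown. Its folds over shCtrl were 1.32 (1.23 to 1.42), 1.49 (1.38 to 1.60) and 1.24 (1.14 to 1.34). The direction did not hold throughout against the DMSO mean, where its log2 differences were -0.15, 0.02 and -0.24. The DEGS1 level of shCtrl was the lowest of the 8 libraries.

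The other 7 members stayed within 0.786 to 1.11 of shCtrl. Of the sphingomyelin synthases, SGMS1 stood at 0.871, 0.870 and 0.788 of shCtrl in the ABL1, ABL2 and double knockdown, and SGMS2 at 0.978, 1.11 and 0.891. Of the ceramide synthases, CERS2 stood at 0.829, 0.825 and 0.932, CERS5 at 0.971, 0.866 and 0.898, and CERS6 at 0.786, 0.980 and 0.852. Of the serine palmitoyltransferase subunits, SPTLC1 stood at 1.04, 0.872 and 0.923 and SPTLC2 at 0.933, 0.903 and 0.958. The CPM ranges of these 7 over the 4 shRNA libraries were 1.08 to 1.26 times from lowest to highest, against 4.69 times for UGCG, 1.54 times for B4GALT5 and 1.53 times for DEGS1. Without shCtrl, the double knockdown stood for these 7 between 0.886 (SPTLC1) and 1.12 (CERS2) of ABL1 shRNA and between 0.805 (SGMS2) and 1.13 (CERS2) of ABL2 shRNA. Directions over shCtrl often turned against the DMSO mean. CERS5 and SPTLC2, below shCtrl in all 3 knockdowns, were above the DMSO mean in all 3, at log2 0.35, 0.19 and 0.24 for CERS5 and 0.21, 0.16 and 0.25 for SPTLC2. In the ABL2 knockdown SGMS2 went from above shCtrl to log2 -0.45 and CERS6 from below it to 0.06, and in the double knockdown SPTLC1 went from below it to 0.04. SGMS1 and CERS2 were below both references in all 3 knockdowns, at log2 -0.42 and -0.28 over the DMSO mean in the double knockdown. Median log2 fold changes over the 10 members against shCtrl were -0.07, -0.17 and -0.14, and 0.0037, -0.0061 and 0.0003 over all genes.

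**Figure D4:**
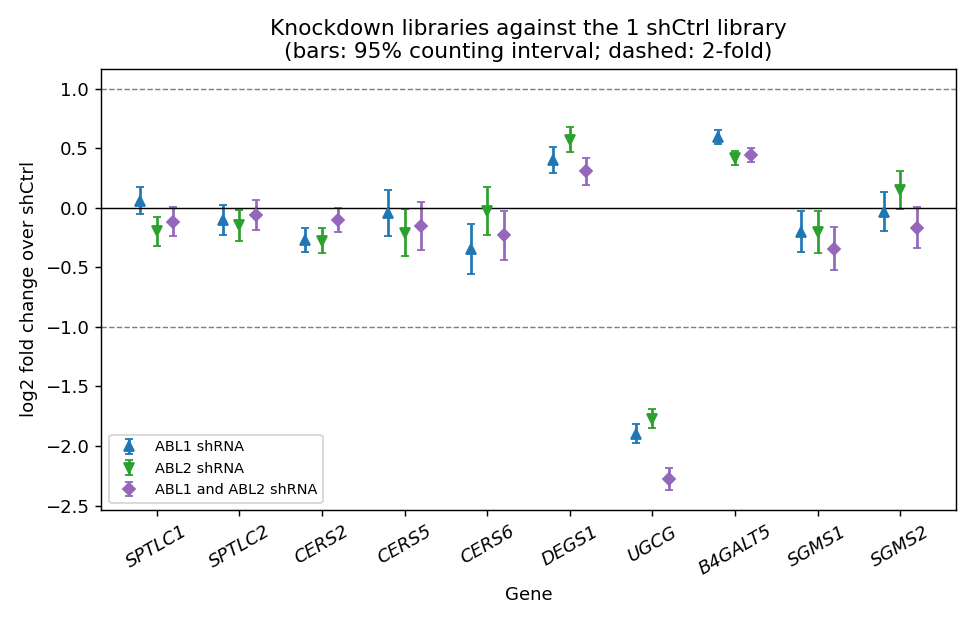
Log2 fold change of each enzyme mRNA in the 3 knockdown libraries over the 1 shCtrl library, with bars for 95% counting intervals and dashed lines at 2-fold. UGCG lies at -1.90, -1.77 and -2.28, and the other 9 members lie between the dashed lines.

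Side by side, UGCG was lower after Ponatinib than in DMSO (log2 -0.74) and lower in the double knockdown than in shCtrl (log2 -2.28), or than in the DMSO mean (log2 -0.76). DEGS1 fell with Ponatinib (log2 -0.33) and was at log2 0.31 in the double knockdown over shCtrl but at -0.24 over the DMSO mean. Its direction in the double knockdown thus depended on the reference, and why was not tested. B4GALT5 was at log2 -0.13 with Ponatinib, where it did not pass, and at 0.44 in the double knockdown over shCtrl or 2.08 over the DMSO mean. Differences between the Ponatinib and knockdown effects were not tested, since the knockdowns have no replicates. In the double knockdown each ABL mRNA was reduced only in part, and less than in its single knockdown. ABL2 mRNA itself fell with Ponatinib, from 315 ± 20.1 to 160 ± 15.9 CPM (SD, n = 2 each, log2 fold change -1.02, edgeR adjusted p = 8.56e-08), and ABL1 rose by 0.19 on that scale (edgeR adjusted p = 0.029).

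The genes whose 4 log2 fold changes (3 knockdowns and Ponatinib) lay nearest to those of UGCG, by Euclidean distance among 10157 genes with a mean of at least 10 CPM, were SLC1A3 (distance 0.367), LIMCH1 (0.859), AOX1 (0.922), NEXN (0.923) and THBS1 (0.962). SLC1A3, a glutamate transporter, had 33.8 CPM in shCtrl and 8.15, 9.15 and 7.99 CPM in the ABL1, ABL2 and double knockdown, and went from 6.48 to 4.74 CPM with Ponatinib, which did not pass (edgeR adjusted p = 0.068). Its mean of 10.2 CPM passed the cut of 10 CPM only through shCtrl, and every other group mean lay below 10 CPM. The place of SLC1A3 in the list thus rests on shCtrl, which is also the reference of the 3 knockdown values. Like UGCG, SLC1A3 was higher in shCtrl than in the other 3 shRNA libraries, which follows from the distance rule, and than the DMSO mean. The other named genes differed in the latter. In shCtrl against the DMSO mean, AOX1 (26.2 against 75.8 CPM) and NEXN (27.0 against 40.5 CPM) were lower. LIMCH1 (143 against 131 CPM) and THBS1 (747 against 318 CPM) were higher. THBS1, which encodes the matrix protein thrombospondin, had 747 CPM in shCtrl and 213 to 285 CPM in the knockdown libraries. It fell by 1.18 on the log2 scale after Ponatinib (edgeR adjusted p = 3.21e-09). The order depends on the rule: 2 of the 5 genes were named when genes down to a mean of 1 CPM were allowed, and 0 by Pearson correlation of the 4 values.

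The rest of the sphingolipid pathway was read from a list of 59 other genes, of which 50 could be tested with Ponatinib. In that list 12 genes fell and 14 rose, against 30.7% of all genes passing in either direction, with a median log2 fold change of 0.0025. Of the steps that make ceramide, KDSR, the ketosphinganine reductase, fell from 50.1 ± 0.323 to 38.4 ± 0.480 CPM (SD, n = 2 each, log2 fold change -0.43, edgeR adjusted p = 0.00103). ORMDL2, a regulator of serine palmitoyltransferase and not a step itself, also fell, although 34.2% of its exon length overlaps DNAJC14 on the opposite strand. The other 5 tested genes of the serine palmitoyltransferase group did not pass. B4GALT6, the partner of B4GALT5 in making lactosylceramide, fell from 37.2 ± 0.175 to 24.1 ± 1.53 CPM (log2 fold change -0.68, edgeR adjusted p = 8.67e-05). ST3GAL5, which makes the ganglioside GM3 from lactosylceramide, had 5.21 and 4.68 CPM in DMSO and 11.2 and 6.47 CPM after Ponatinib (log2 fold change 0.84, edgeR adjusted p = 0.015). Its Ponatinib libraries lay far apart, on 117 and 49 counts.

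Sphingosine 1-phosphate is a signalling lipid made when ceramide is broken down. Of its 4 tested metabolic enzymes 2 fell (SPHK1 and SPHK2) and 1 rose (SGPL1), and of its 5 tested exporters and receptors 2 fell (MFSD2B and S1PR3) and 1 rose (S1PR1). SGPP1 (log2 fold change -0.01), SPNS2 (-0.47) and S1PR5 (-0.47) did not pass (edgeR adjusted p = 0.939, 0.261 and 0.249). SPHK1, the kinase that makes it, had 57.8 and 51.9 CPM in DMSO and 14.6 and 17.8 CPM after Ponatinib (log2 fold change -1.82, edgeR adjusted p = 1.01e-08). SGPL1, the lyase that destroys it, had 59.3 and 66.2 CPM in DMSO and 108 and 110.3 CPM after Ponatinib (log2 fold change 0.76, edgeR adjusted p = 1.61e-06). In either gene the treated libraries were well clear of the DMSO libraries. The receptor S1PR1 rose from 2.75 ± 0.787 to 8.60 ± 0.205 CPM (log2 fold change 1.58, edgeR adjusted p = 7.85e-05) and the receptor S1PR3 fell from 4.50 ± 1.01 to 1.89 ± 0.0512 CPM (log2 fold change -1.30, edgeR adjusted p = 0.0027), both on at most 91 counts in these 4 libraries. MFSD2B, a sphingosine 1-phosphate exporter, fell by 0.72 on the log2 scale (edgeR adjusted p = 5.1e-05), although 10.3% of its exon length is shared with FKBP1B on the same strand.

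With the knockdowns, 53 genes of the same list passed the filter on low counts, and 6 were past 2-fold with ABL1 shRNA (2 lower, 4 higher), 5 with ABL2 shRNA (all higher) and 3 with both (1 lower, 2 higher), where 8.76%, 7.68% and 7.75% of all genes were past it. SGPP1, a sphingosine 1-phosphate phosphatase, had 20.9 CPM in shCtrl and 49.7, 43.3 and 43.4 CPM in the ABL1, ABL2 and double knockdown, folds of 2.33, 2.01 and 2.01. DMSO had 54.0 and 52.2 CPM, and over the DMSO mean the direction turned, at log2 -0.15, -0.36 and -0.36. ST8SIA1, the GD3 synthase, had 78 counts in shCtrl and 43, 51 and 33 in the knockdown libraries, folds of 0.484, 0.591 and 0.396, with intervals as wide as 0.255 to 0.602 for the last. Its direction turned as well, with log2 values over the DMSO mean of 0.74, 1.02 and 0.45. SPHK1, which fell with Ponatinib, was at log2 0.37, 0.79 and 0.77 over shCtrl and 0.42, 0.84 and 0.82 over the DMSO mean.

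**Figure D5:**
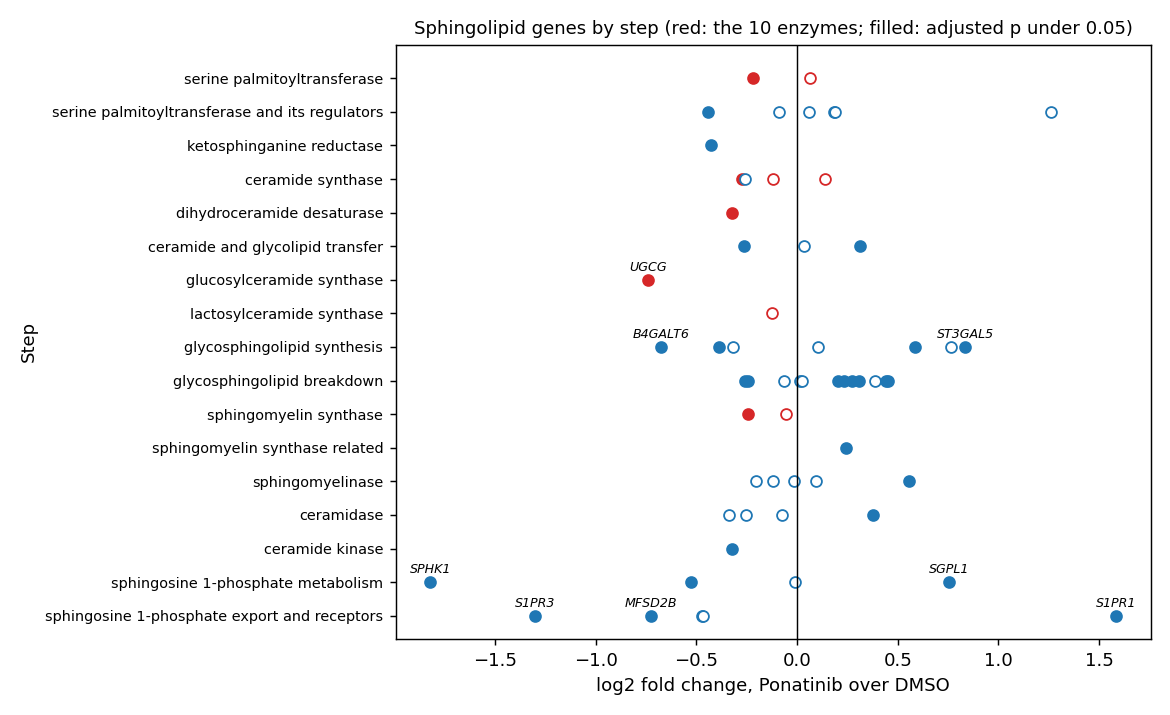
Log2 fold change with Ponatinib for the sphingolipid genes tested, by step of the pathway, 1 point per gene (red, the 10 enzymes; blue, other genes of the list; filled, edgeR adjusted p under 0.05). Named points passed the test with an absolute log2 fold change over 0.65; UGCG is at -0.74, SPHK1 at -1.82 and S1PR1 at 1.58.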

How the data were processed

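Reads from 8 LM2 libraries (NEBNext Ultra RNA kit) were mapped to hg38 with TopHat and counted with HTSeq 0.6.0, per the labels' processing notes. The authors deposited raw counts per gene and library, without normalization or pooling. The shRNA tables end in totals from the counter (9.48 to 9.90% of reads on no feature, 6.12 to 6.32% ambiguous), which were left out.

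Symbols were joined to the deposited Ensembl IDs through GENCODE v44 (54836 of 58688 matched). Ponatinib was compared with DMSO by edgeR 4.0.16 in R 4.3.3 (TMM, filterByExpr, quasi-likelihood test, 4 libraries), with an adjusted p under 0.05 as the call. Each knockdown was compared with shCtrl without a test, with TMM scaling over the 4 shRNA libraries. Wilson and exact intervals are at 95% and cover counting error only. TPM used merged exon lengths. Steps across genes were tested on simulated data.

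The 10 members and the list of 59 other genes were chosen with earlier results of these data known. Other genes named had an adjusted p under 0.05 and a fold over 1.5 with Ponatinib, or were past 2-fold in at least 2 knockdowns, with at least 50 counts in 1 library; KDSR, ORMDL2, SPHK2, SPNS2, S1PR5, ASAH1, CERT1, CERK and the glycosphingolipid breakdown genes were named after their values were seen. The 5 genes nearest to UGCG were taken by distance.

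The repeats differed by more than sampling noise (chi-square per degree of freedom 1.44 in DMSO, 3.12 in Ponatinib). Libraries with the same repeat number did not deviate together (r = 0.010 over 11151 genes). Alternatives were other scalings and filters, DESeq2 1.42.0, a replicate block, a fit of all 8 libraries and leaving out each DMSO or Ponatinib library. Comparisons with the DMSO mean and among the knockdowns were chosen after seeing the data.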

Additional observations from a re-analysis of the deposited data

How the results depend on the processing

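Of the 5 members called with Ponatinib, UGCG and DEGS1 passed in each of 11 alternative fits, and leaving out a library kept UGCG between -0.79 and -0.68 on the log2 scale. The count of members called was 3 by library totals, 3 in the DESeq2 Wald test, 2 to 5 with a library left out, and 0 with the fold and P thresholds of the study. That of other sphingolipid genes, 26, was 13, 14 to 27 and 4 in the last 3 of these. DESeq2 gave 47 of those genes an adjusted p. A fit with a replicate block called 5 members and 27 other genes. The count of 1 member past 2-fold over shCtrl (UGCG) became 2 at 1.5-fold with ABL1 shRNA. In the edgeR fit of all 8 libraries it became 4 in each knockdown (2 lower, 2 higher). Without shCtrl, the double knockdown had 0 members past 2-fold against ABL1 shRNA and 0 against ABL2 shRNA, and against the DMSO mean 1 member was past it in each knockdown, B4GALT5 and not UGCG (shares over all genes were 3.45%, 4.98%, 31.9%, 32.4% and 30.5%). With the longest transcript as length, UGCG in DMSO was 108 rather than 122 TPM, and its log2 ratio to the sphingomyelin synthases 0.75 rather than 1.08. Of the 5 genes nearest to UGCG, 2 and 0 were shared by the other rules. Among the members, no direction was reversed in a Ponatinib call or in a knockdown fold past 2-fold. Below 2-fold, several members turned against the DMSO mean. DEGS1 was among them, at log2 0.31 over shCtrl and -0.24 over the DMSO mean in the double knockdown. SGPP1 and ST8SIA1 turned as well. The cause of these changes was not tested beyond the construction of each alternative. With 1 library per knockdown, no spread between replicates can be had.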

Other observations

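Of 12 genes of glycosphingolipid breakdown tested, 6 rose after Ponatinib (GALC, GLB1, HEXA, GM2A, NEU1 and PSAP) and 2 fell (GBA2, which works outside the lysosome, and GLA). PSAP, the precursor of the saposins that present these lipids to their hydrolases, had 1096 and 1088 CPM in DMSO and 1423 and 1366 CPM after Ponatinib (log2 fold change 0.31, edgeR adjusted p = 0.00064). GM2A, the GM2 activator, had 30.9 and 29.3 CPM in DMSO and 43.7 and 41.0 CPM after Ponatinib (log2 fold change 0.45, edgeR adjusted p = 0.00155). HEXA and NEU1 passed only narrowly (log2 fold change 0.23 and 0.20, edgeR adjusted p = 0.048 and 0.047). GLA was at -0.26 (edgeR adjusted p = 0.033). Exons of HEXA and GLA overlap another gene on the opposite strand over 13.2% and 8.99% of their length. ASAH1, the acid ceramidase, rose from 52.9 ± 0.999 to 71.0 ± 1.93 CPM (SD, n = 2 each, log2 fold change 0.38, edgeR adjusted p = 0.0011), and the other 3 ceramidases tested did not pass. CERT1, which carries ceramide to the Golgi apparatus for sphingomyelin synthesis, rose by 0.31 on the log2 scale (edgeR adjusted p = 0.0083), and CERK, the ceramide kinase, fell by 0.32 on the log2 scale (edgeR adjusted p = 0.0034). Across all genes tested, 15.0% rose and 15.7% fell.

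ST3GAL5 and PSAP had levels in the shRNA libraries that differed from the DMSO libraries by more than any knockdown differed from shCtrl. ST3GAL5 had 5.21 and 4.68 CPM in DMSO and 40.9 CPM in shCtrl, with 56.8, 70.9 and 51.9 CPM in the knockdown libraries. PSAP had 2945 CPM in shCtrl and 2224 to 2571 CPM in the knockdown libraries. The shRNA libraries differ from the DMSO libraries in shRNA virus and puromycin selection, which cannot be told apart from other differences between the sets.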
